A study of Mus musculus with 4 samples.

Results

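The baseline transcriptome of mature natural killer (NK) cells was described from the 2 wild-type libraries of a series of 4. The rule used the labels and no measured value: both libraries labelled wild type were taken with all 26611 genes of the count table, and the 2 libraries from Tcf7 knock-out mice were not used. Each wild-type library came from the spleen of 1 mouse on the C57BL/6 background, with no treatment and no age given in the labels. The cells were sorted for NK1.1, NKp46, CD11b and KLRG1 on the surface and for the absence of TCRbeta, so that immature NK cells, which lack KLRG1 and CD11b, lay outside the gate. The libraries held 31860505 counts (WT library 1) and 40175537 counts (WT library 2). Levels are given in TPM, the length-scaled unit of RNA-seq: the count of a gene divided by its length and scaled so that all genes of a library sum to the same total. With 1 group of 2 mice no comparison between groups was made and no test was run. Every value is a level or a difference between these 2 libraries, and SD is over n = 2.

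NK cells are lymphocytes that kill infected or transformed cells without rearranged antigen receptors. They carry granules loaded with perforin, which opens the target membrane, and granzymes, proteases that enter through it and start cell death. Whether a cell kills is set by the balance between activating receptors, which signal through small adaptor proteins, and inhibitory receptors, many of which recognise MHC class I on healthy cells. CD11b and KLRG1 mark the late stage of NK cell maturation in the mouse spleen.

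The 6 marker genes of the label were all abundant in both libraries. Klrb1c, which encodes NK1.1, stood at 3319 TPM in WT library 1 and 2703 TPM in WT library 2. Ncr1, which encodes the activating receptor NKp46, stood at 2169 and 2105 TPM. Klrg1, which encodes an inhibitory receptor for cadherins, stood at 1097 and 1073 TPM. All 3 ranked between 33 and 111 by mean TPM among the 26611 genes. Itgam, which encodes CD11b, was lower in both libraries than the other 3 genes of the gate, at 450 and 654 TPM. The order Klrb1c, Ncr1, Klrg1, Itgam by TPM was the same in both libraries. The order of the last 2 depended on the length scaling. By mean TPM Klrg1 ranked 111 and Itgam 244, whereas by counts without gene length Klrg1 ranked 156 and Itgam 70. The remaining markers, Gzma and Prf1, ranked 1 and 22.

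The transcriptome was concentrated on few genes. A mean of 1 TPM or more was reached by 11134 of the 26611 genes, and by 10095 of the 20983 protein-coding genes. Each count of list members at 1 TPM given below is to be read beside these shares. No count in either library was found for 7903 genes (29.7%). The 10 highest genes held 13.4% of the summed TPM, the 100 highest 35.2%, and 313 genes held 50% of it. A total of 5 genes exceeded 10000 TPM and together held 9.53% of the level, and 116 further genes between 1000 and 10000 TPM held 28%. The median gene at 1 TPM or more stood at 22.1 TPM. For a gene of 1 kb, a count of 0 allows up to 0.169 TPM in WT library 1 and 0.151 TPM in WT library 2 (3 counts, counting error only), so levels below that were not resolved.

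**Figure D1:**
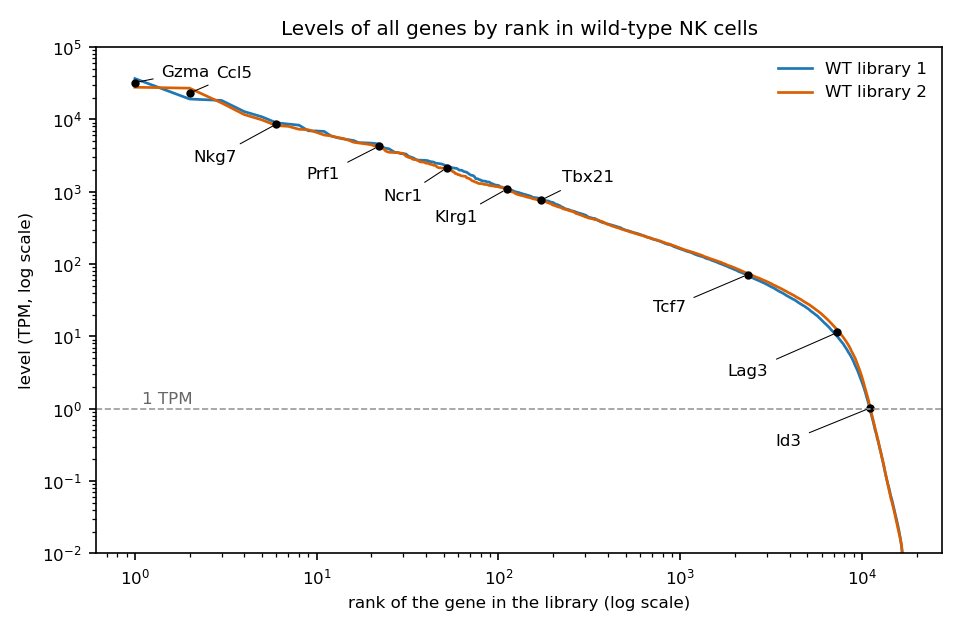
Level of each gene (TPM, log scale) against its rank in its own library (log scale) for both wild-type libraries, with selected genes marked at their mean TPM and their rank by mean TPM. The curves of the 2 libraries run close together from Gzma, at rank 1 in both, through Klrg1 at rank 111 to Id3, which lies at the 1 TPM line.

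The gene of a killing protein led the ranking. Gzma, which encodes granzyme A, had the highest listed level of all 26611 genes, at 36607 and 27778 TPM (mean 32192 ± 6243 SD). It lies on chromosome 13 from 113093824 to 113100981 (mm10) and alone took 1.79% and 1.29% of all counts. Gzmb, which encodes granzyme B, followed at 2734 and 2570 TPM. Gzma exceeded Gzmb 13.4-fold in WT library 1 and 10.8-fold in WT library 2. The other 8 granzyme genes were far lower. Gzmk, the neighbour of Gzma on chromosome 13, reached 35 and 22.9 TPM, and Gzmm, on chromosome 10, reached 23.5 and 12.7 TPM. Gzma made up 92.2% of the summed TPM of the 10 granzyme genes, and that sum was 3.49% ± 0.639 (SD) of the level of all genes.

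Of the 22 genes of the granule and its release, 21 reached 1 TPM, against 10095 of all 20983 protein-coding genes, and Vamp7 had no count. Nkg7, which encodes a granule membrane protein needed for degranulation, led them at 8966 and 8208 TPM. Prf1, which encodes perforin, stood at 3683 and 4816 TPM. Gzma exceeded Prf1 9.94-fold in WT library 1 and 5.77-fold in WT library 2. Ctsd, the lysosomal protease cathepsin D, reached 3352 and 3639 TPM, and Ctsw, cathepsin W, 1396 and 1295 TPM. Srgn, the proteoglycan that packs granzymes and perforin, stood at 1288 and 1146 TPM. Serpinb9, an inhibitor that shields the cell from its own granzyme B, was present at 502 and 547 TPM. The genes that dock and fuse granules were lower than these in both libraries: Rab27a, which moves granules to the membrane, stood at 85.1 and 115 TPM, and Unc13d, which primes the granule for fusion, at 72.9 and 94.9 TPM.

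The region of chromosome 14 from Cma1 to Gzmb (55941451 to 56262334, mm10) held proteases at very unequal levels. Of its 17 genes, 6 reached 1 TPM and 2 reached 100 TPM. Those 2 are Cma1 and Gzmb, the genes by which the region was bounded. Gzmb closes the cluster, and Cma1, which encodes mast cell chymase, opens it at 1371 and 1174 TPM. Cma1 thus reached 0.502 of the Gzmb level in WT library 1 and 0.457 of it in WT library 2. Between them, the transcribed pseudogene Gm5801 was the highest, at 77.4 and 70.9 TPM. Gzmc stood at 10.9 and 3.94 TPM, Gzmg at 4.83 and 0 TPM, and Gzmn had no count in either library. Genes that define mast cells and basophils were far below Cma1 in the same libraries: Cpa3, mast cell carboxypeptidase, stood at 2.91 and 1.91 TPM, Mcpt8 at 0.269 and 0 TPM, and Fcer1a, the IgE-binding chain of the high-affinity IgE receptor, had no count.

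Secreted mediators were dominated by a single chemokine. Ccl5, which attracts T cells and monocytes, ranked 2 of all genes at 19101 and 26975 TPM, and it was higher in the library in which Gzma was lower. It made up 92.8% of the summed TPM of the 21 chemokine and cytokine genes. Ccl4 stood at 563 and 723 TPM, Xcl1, the ligand that draws XCR1-bearing dendritic cells, at 313 and 223 TPM, and Ccl3 at 214 and 285 TPM. Ifng, the hallmark cytokine of NK cells, was present at 92.4 and 73 TPM. The type 2 cytokine genes Il4 and Il13 and the type 3 gene Il22 had no count in either library. Among death ligands, Fasl stood at 160 and 176 TPM, whereas Tnf, at 0.174 and 0.156 TPM, and Lta, at 0.204 and 0.0729 TPM, were below 1 TPM.

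**Figure D2:**
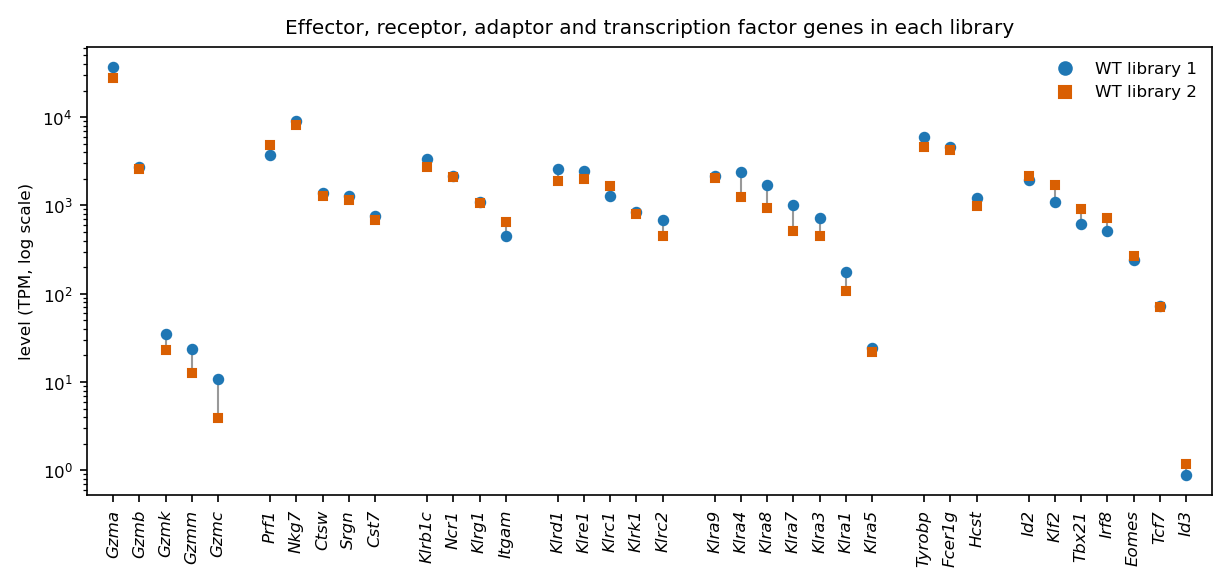
Level (TPM, log scale) of selected granzyme, granule, gate, lectin receptor, Ly49, adaptor and transcription factor genes in WT library 1 (circles) and WT library 2 (squares). Gzma is more than 10-fold above Gzmb in both libraries, and Gzmb in turn lies far above Gzmk, Gzmm and Gzmc; the Ly49 genes Klra4, Klra8, Klra7, Klra3 and Klra1 sit higher in WT library 1.

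The lectin-like NK receptors are encoded together on chromosome 6, where the interval from Klrb1a to Klra1 (128609227 to 130386874, mm10) held 49 genes. A level of 100 TPM or more was reached by 19 of them, and all 19 belonged to the 26 Klr genes. The 12 Clec genes of the same interval had a median of 0.0500 TPM, and the highest of them stood at 22.9 TPM. The Klr genes of the interval together held 2.01% of the TPM of all genes.

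Among the CD94, NKG2 and Nkrp1 receptors, 11 of 12 reached 1 TPM, with a median of 574 TPM, and Klrh1 had no count. Klrd1, which encodes CD94, the partner chain of the NKG2A and NKG2C receptors, stood at 2590 and 1890 TPM. Klre1, a partner chain of the Klri receptors, stood at 2448 and 2011 TPM. Klrc1, which encodes the inhibitory NKG2A, exceeded Klrc2, which encodes the activating NKG2C, in both libraries: 1288 against 687 TPM in WT library 1 and 1641 against 449 TPM in WT library 2. Klrk1, which encodes the activating receptor NKG2D, was nearly equal in the libraries at 834 and 800 TPM.

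The Ly49 family, receptors that mostly bind MHC class I, spanned more than 3 orders of magnitude. Of 13 members in the table, 11 reached 1 TPM and 8 reached 100 TPM. Klra9 stood at 2177 and 2047 TPM, Klra4, which encodes Ly49D, at 2405 and 1230 TPM, and Klra8, which encodes the activating receptor Ly49H, at 1719 and 926 TPM. Klra7 followed at 998 and 511 TPM, and the inhibitory receptor gene Klra3 at 714 and 456 TPM. Klra2, at 0.807 and 0.0801 TPM, and Klra17, at 0.479 and 1.16 TPM, were the lowest of the 13. All 11 Ly49 genes at 1 TPM or more were higher in WT library 1, as were 39.9% of all genes at that level. Their median log2 ratio of library 1 to library 2 was 0.65, against -0.12 over all genes at 1 TPM or more, 0.23 over genes of 500 to 1000 bases and 0.07 over genes of 1 to 2 kb, the 2 length classes that hold them. Ly49 genes differ between mouse strains and resemble one another closely, and reads of one member can be counted for another, so the split of the sum between them is uncertain.

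The adaptors Tyrobp and Fcer1g, which carry the signals of activating receptors, stood above every receptor gene named so far in both libraries. Tyrobp, which encodes DAP12, stood at 5890 and 4618 TPM and ranked 14. Fcer1g, which encodes the FcR gamma chain, stood at 4629 and 4251 TPM, and Hcst, which encodes the NKG2D adaptor DAP10, at 1224 and 973 TPM. Tyrobp exceeded Hcst 4.81-fold in WT library 1 and 4.75-fold in WT library 2. The third ITAM adaptor, Cd247 (CD3 zeta), was far lower at 121 and 136 TPM, 38.2-fold and 31.3-fold below Fcer1g. All 22 adaptors and proximal kinases on the list reached 1 TPM. Among the kinases, Lck stood at 831 and 924 TPM and Zap70 at 214 and 254 TPM. Fcgr3, the receptor for antibody-coated targets, stood at 157 and 135 TPM.

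Inhibitory checkpoint receptors known from exhausted T cells stood at unequal levels, and 7 of the 11 on the list reached 1 TPM. Cd96 stood at 117 and 111 TPM, Tigit at 68.9 and 97.0 TPM and Lag3 at 10.2 and 12.4 TPM. Havcr2 (TIM-3), at 0.393 and 0.462 TPM, Pdcd1 (PD-1), at 0.204 and 0.0522 TPM, and Ctla4, at 0.117 and 0 TPM, did not reach 1 TPM.

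Cytokine receptors were uneven between chains. Il2rb, the chain shared by the IL-2 and IL-15 receptors, stood at 2800 and 3502 TPM, 3.03-fold and 3.00-fold above the common gamma chain gene Il2rg at 925 and 1168 TPM. Il2ra, the chain that raises affinity for IL-2, stood at 0.318 and 0.375 TPM. Il7r was low at 5.36 and 3.58 TPM. For IL-18, the accessory chain gene Il18rap, at 488 and 590 TPM, exceeded Il18r1, at 98.2 and 147 TPM. For IL-12, Il12rb2, at 144 and 328 TPM, exceeded Il12rb1, at 28.7 and 50.7 TPM. Of the Jak and Stat genes, Jak1 was the highest at 529 and 868 TPM, followed by Stat4, which relays the IL-12 signal, at 178 and 264 TPM. All 15 genes of the Jak, Stat and Socs list were higher in WT library 2, as were 60.1% of all genes at 1 TPM or more.

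Receptors for exit and tissue entry were present at unequal levels. S1pr5, the sphingosine phosphate receptor by which NK cells leave bone marrow and lymph node, stood at 675 and 776 TPM, above S1pr1 at 89.7 and 96.9 TPM. Ccr2 stood at 372 and 208 TPM and Cx3cr1 at 115 and 250 TPM. Ccr7, Ccr9 and Ccr6, homing receptors of lymph node and gut, were all below 1 TPM in both libraries. Among adhesion genes, Ly6c2 stood at 2932 and 2920 TPM and Itgb2, the beta chain of LFA-1 and Mac-1, at 2423 and 2595 TPM. Itgal, the alpha chain of LFA-1, exceeded Itgam 2.01-fold and 2.16-fold. Itga1 (CD49a), a marker of tissue-resident cells, stood at 1.4 and 4.66 TPM.

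Of 47 transcription factor genes, 42 reached 1 TPM. Id2, an inhibitor of E proteins required for NK cell development, led at 1916 and 2139 TPM, and Klf2, a regulator of lymphocyte trafficking, followed at 1095 and 1717 TPM. Tbx21, which encodes T-bet, stood at 624 and 909 TPM and exceeded its relative Eomes, at 241 and 266 TPM, in both libraries (2.59-fold and 3.41-fold). Irf8 stood at 514 and 713 TPM and Ets1 at 426 and 610 TPM. Tcf7, which encodes the Wnt pathway factor TCF-1 and is known to fall as NK cells mature, stood at 73.3 and 69.9 TPM (mean 71.6 ± 2.36 SD) and ranked 2357. Id3, a relative of Id2, stood at 0.887 and 1.16 TPM.

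Class I MHC and actin genes ranked with the effector genes. B2m, the light chain of MHC class I, stood at 12795 and 11634 TPM, H2-K1 at 6805 and 7286 TPM and H2-D1 at 5572 and 5626 TPM. The 18 genes of class I and its peptide loading held 3.19% ± 0.0285 (SD) of the TPM. Of the 26 actin cytoskeleton genes, 25 reached 100 TPM, led by Pfn1, profilin, at 5082 and 5439 TPM and by Actb at 3493 and 6071 TPM. The remaining gene was Tmsb4x, listed at 3.37 and 1.2 TPM. It is known to be abundant in most cells, so the order within this list is uncertain. AW112010, a lymphocyte and macrophage transcript annotated as long non-coding, ranked 8 at 8597 and 6599 TPM.

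Mitochondrial and ribosomal protein genes took large shares of the level. The 15 mitochondrially encoded genes held 6.53% ± 0.183 (SD) of the TPM, led by COX1 of complex IV at 18251 and 16852 TPM, and the 80 cytosolic ribosomal protein genes held 4.26% ± 0.551 (SD). Counted without gene length, ribosomal proteins held 1.76%, below class I MHC at 2.31%, actin genes at 2.24% and integrins and adhesion genes at 1.89%. The 44 nuclear genes of oxidative phosphorylation all reached 1 TPM, with a median of 269 TPM. Genes of glucose uptake and glycolysis had a median of 61.7 TPM, with Aldoa at 404 and 419 TPM and Ldha at 371 and 368 TPM. Of 33 cell cycle genes, 27 reached 1 TPM. Ccnd3, a G1 cyclin, was the highest at 460 and 550 TPM. Among genes of DNA replication, the sliding clamp gene Pcna stood at 184 and 142 TPM and the helicase subunit gene Mcm6 at 103 and 122 TPM, while Rrm2, of nucleotide synthesis, stood at 6.49 and 5.20 TPM. Among genes of mitosis, Cdk1 stood at 3.04 and 3.31 TPM, Birc5 at 0.578 and 0.369 TPM and the division marker Mki67 at 0.129 and 0.580 TPM. Of 24 type I interferon response genes, 21 reached 1 TPM, with a median of 12.9 TPM. Immediate early and heat shock genes, which can rise while cells are handled, had a median of 46.2 TPM, with Jund at 482 and 698 TPM, Fos at 17.7 and 17 TPM and Egr1 at 7.14 and 25.6 TPM.

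**Figure D3:**
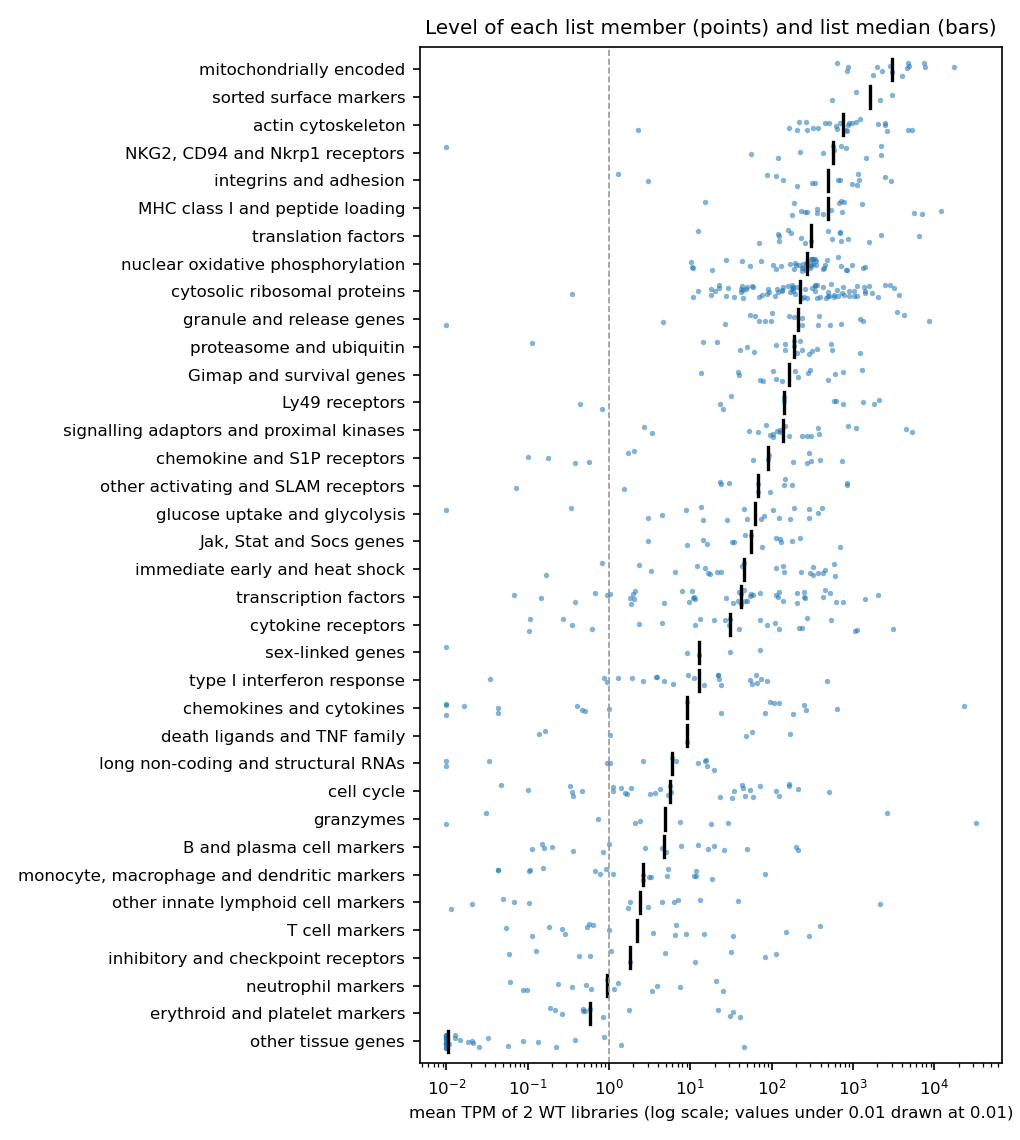
Mean TPM of the 2 libraries (log scale) for each member of the 36 gene lists (points), with the median of each list (bars) and 1 TPM (dashed). Mitochondrially encoded genes have the highest median; granzymes have a low median with 2 members far above it; genes of other tissues lie mostly at the left edge.

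Markers of other cell types were low as summed levels but not absent. Over all genes 11134 of 26611 reached 1 TPM, and over protein-coding genes 10095 of 20983. The 9 of 18 T cell and 7 of 15 neutrophil genes given here lie near these shares. Of 18 T cell genes, 9 reached 1 TPM, and the list summed to 983 and 846 TPM, most of it from constant regions of receptor genes: Trbc2 stood at 428 and 369 TPM, Trbc1 at 327 and 246 TPM and Trdc at 144 and 161 TPM. The CD3 genes were much lower, with Cd3g at 5.90 and 6.99 TPM, Cd3d at 5.26 and 1.70 TPM and Cd3e at 0.510 and 0.631 TPM. Trac stood at 11.6 and 17.7 TPM and the costimulatory receptor gene Cd28 at 37.7 and 29.7 TPM, while Cd4, at 0.291 and 0.244 TPM, and Cd8a, at 0.180 and 0.0483 TPM, were below 1 TPM. Trbc2 exceeded Cd3e 839-fold and 584-fold. Of 18 B and plasma cell genes, 11 reached 1 TPM, and they summed to 703 and 420 TPM, with Igkc at 287 and 139 TPM. Myeloid markers differed between the mice: 12 of 20 monocyte, macrophage and dendritic genes reached 1 TPM, with sums of 257 and 68.2 TPM, and 7 of 15 neutrophil genes, with sums of 124 and 7.56 TPM. Lyz2, lysozyme of myeloid cells, stood at 161 and 6.20 TPM. Of 13 erythroid and platelet genes, 5 reached 1 TPM, with sums of 145 and 120 TPM. No gene of these 5 lists was at 0 in both libraries, against 29.7% of all genes. Of 14 genes on the list of other innate lymphoid cells, 9 reached 1 TPM, with sums of 2236 and 2191 TPM. Ncr1, a gene of the gate that stood at 2169 and 2105 TPM, held 96.5% of the summed level of that list. Of its other members, Il1rl1 stood at 0.113 and 0.0940 TPM and Gata3, which NK cells also express, at 26.6 and 50.9 TPM. The Y-linked gene Eif2s3y stood at 83.1 and 62.2 TPM and Xist at 0.00629 and 0 TPM, so both libraries had a male pattern. Of 34 genes of other tissues, 2 reached 1 TPM, Pecam1, which leukocytes also express, at 38.5 and 53.4 TPM and Ckm at 1.16 and 1.64 TPM, and 13 had no count. The part of these cells in any level above was not tested, and in sorted bulk RNA a few cells of another type and low expression in every cell cannot be told apart.

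The sequence before the start site is given for 6 abundant genes, to show what promoters poor and rich in CpG look like. The 100 bases upstream of the RefSeq start (GRCm38.p6, the mm10 assembly) are shown 5′ to 3′ on the gene's strand for 4 NK cell genes and 2 genes of all cells; capitals mark TATAA, searched from 45 to 16 bases before the start on the gene's strand, and TGTGGT or its reverse complement ACCACA, the core letters read by Runx factors. The 2 motifs share no overlap in these windows.
Gzma, chr13:113100982-113101081, minus strand: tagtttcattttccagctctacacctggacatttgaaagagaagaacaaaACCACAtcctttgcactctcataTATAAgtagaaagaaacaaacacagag
Nkg7, chr7:43437038-43437137, plus strand: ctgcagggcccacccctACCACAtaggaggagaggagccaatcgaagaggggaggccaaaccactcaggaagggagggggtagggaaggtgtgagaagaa
Ncr1, chr7:4337615-4337714, plus strand: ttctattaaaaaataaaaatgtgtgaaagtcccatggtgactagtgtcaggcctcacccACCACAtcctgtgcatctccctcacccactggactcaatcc
Klrb1c, chr6:128788642-128788741, minus strand: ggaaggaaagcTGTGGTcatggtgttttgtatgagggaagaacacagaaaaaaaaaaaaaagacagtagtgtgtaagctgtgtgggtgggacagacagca
B2m, chr2:122147587-122147686, plus strand: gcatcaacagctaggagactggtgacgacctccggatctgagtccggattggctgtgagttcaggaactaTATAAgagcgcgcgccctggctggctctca
Eef1a1, chr9:78481725-78481824, minus strand: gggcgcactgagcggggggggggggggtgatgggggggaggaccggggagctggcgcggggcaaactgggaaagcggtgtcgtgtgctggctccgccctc
The windows of Gzma, Ncr1 and Klrb1c hold no CG pair and that of Nkg7 holds 1, against 6 for B2m and 8 for Eef1a1, the translation elongation factor gene at 6942 and 5899 TPM.

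Over 300 bases around the start (250 before, 50 after), available for 16784 of 20983 protein-coding genes, the ratio of observed to expected CpG had a median of 0.596. The ratio was below 0.4 in 37.6% of all these promoters. By level it was below 0.4 in 66.7% of promoters of genes under 0.1 TPM and in 9.12% of those at 10 to 100 TPM. The share was again higher, 37.7%, at 1000 TPM or more, where only 61 of 104 protein-coding genes had a promoter sequence. The gene lists spanned the whole range. All 11 Ly49 promoters, 9 of 10 granzyme promoters and 9 of 10 promoters of the NKG2, CD94 and Nkrp1 list were below 0.4, against 0 of 60 ribosomal protein and 0 of 33 nuclear oxidative phosphorylation promoters. Cytokine receptors, with 8 of 20, and granule and release genes, with 8 of 18, lay near the share of all promoters. The granzyme and Ly49 lists include genes of low level, and expressed members were not compared with other genes of their own level. The low ratio was not limited to expressed genes of NK cells: all 14 neutrophil and all 10 erythroid and platelet promoters were below 0.4 too. TGTGGT or ACCACA occurred in 14.7% of all 300-base promoters. By level the share was highest at 1000 TPM or more, at 29.5% (18 of 61). By list the letters occurred in 8 of 10 granzyme promoters, in 6 of 10 of the NKG2, CD94 and Nkrp1 list and in 1 of 11 Ly49 promoters. In Eef1a1 the match lies outside the printed window. The TATAA letters occurred in 4.97% of all promoters. By level they occurred in 8.78% of promoters of genes under 0.1 TPM and in 9.84% of those at 1000 TPM or more (6 of 61). The share was lower in every level class between these, so the letters were not limited to abundant genes. Members of a gene family share ancestry, so their promoters are not independent, and the matches are descriptions of sequence.

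**Figure D4:**
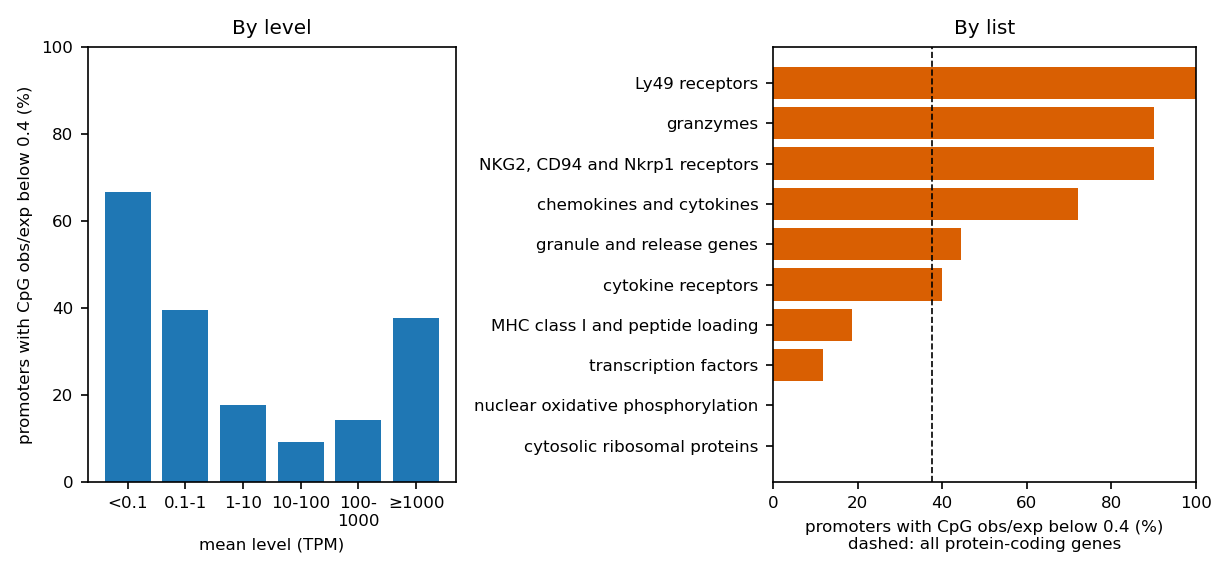
Percent of 300-base promoters with an observed to expected CpG ratio below 0.4, by mean level of the gene (TPM, left) and by gene list (right, dashed line at 37.6% for all protein-coding genes). The share is lowest at 10 to 100 TPM (9.12%) and higher at both ends; Ly49, granzyme and NKG2 list genes lie near the right edge and ribosomal protein genes at 0.

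Reads of near-identical sequences can be counted for one copy or for another, and some levels are uncertain for that reason. Mir682, a microRNA gene of 96 bases, was listed at rank 5 of all genes at 10836 and 9829 TPM, from 18452 and 18729 counts. Its hairpin is shown beside bases 182 to 277 of the transcript Rpl37a-201 (GENCODE), which encodes a ribosomal protein; the capital marks the only base of 96 that differs.
Mir682, chr13:75645046-75645141, plus strand: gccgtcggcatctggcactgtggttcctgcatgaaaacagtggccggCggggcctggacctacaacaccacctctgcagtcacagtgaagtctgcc
Rpl37a: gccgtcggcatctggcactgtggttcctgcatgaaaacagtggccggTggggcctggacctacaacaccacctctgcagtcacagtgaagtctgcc
Rpl37a itself was listed at 252 and 249 TPM, and the whole hairpin sequence also lies in the processed pseudogene Gm4149. Between genes and annotated copies the pattern recurred. In 42 pairs of a copy at 50 TPM or more and its parent gene, the copy stood higher in both libraries in 36, with a median ratio of 2.96; the copies were chosen for their level, which favours a high ratio. Rps27rt stood at 5363 and 4061 TPM and its parent Rps27 at 137 and 104 TPM. In the 38 pairs with transcripts, a median of 81.0% of the copy's 30-base words occurred in the parent. Genes known to be abundant in most cells were listed at low levels, among them Gapdh at 3.16 and 2.86 TPM and Tmsb4x at 3.37 and 1.2 TPM. The cause of these low levels was not tested.

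The libraries came from 2 mice. As a check for 1 library deposited under both labels, their counts differed with a chi-square per degree of freedom of 99.3, far from the value near 1 of a repeat; any 2 animals differ at this depth. Across the 11134 genes at 1 TPM or more, Pearson's r of log2(TPM + 0.1) was 0.949 and Spearman's rho 0.965; this is across genes, which are not independent replicates. The median gene differed 1.24-fold between the libraries, and 11.5% of genes differed by 2-fold or more. WT library 1 was at least 2-fold higher for 247 genes (2.22%) and WT library 2 for 1034 genes (9.29%). None of the 121 genes at 1000 TPM or more differed by 2-fold.

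The difference followed gene length. Genes under 500 bases were higher in WT library 1, with a median log2 ratio of library 1 to library 2 of 0.34, and genes of 8 kb or more were higher in WT library 2, with a median of -1.07. In the longest class 52.7% of 366 genes were at least 2-fold higher in WT library 2, and 0 were 2-fold higher in WT library 1. Examples from this class are Ahnak at 18.5 and 140 TPM and Plec, plectin, at 5.45 and 47.3 TPM. In the class of 4 to 8 kb, Myh9, non-muscle myosin heavy chain, stood at 35.7 and 289 TPM. The Jak genes, all over 4 kb and all higher in WT library 2, lie in the direction of this trend, as does Itgam; its part in their levels was not tested. The genes furthest above in WT library 1 were of another kind: Lyz2 and the neutrophil genes S100a8, at 46.5 and 3.47 TPM, S100a9, at 39.4 and 2.17 TPM, and Retnlg, at 14.2 and 0.663 TPM, with 3 immunoglobulin kappa variable segments and Igkj1.

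**Figure D5:**
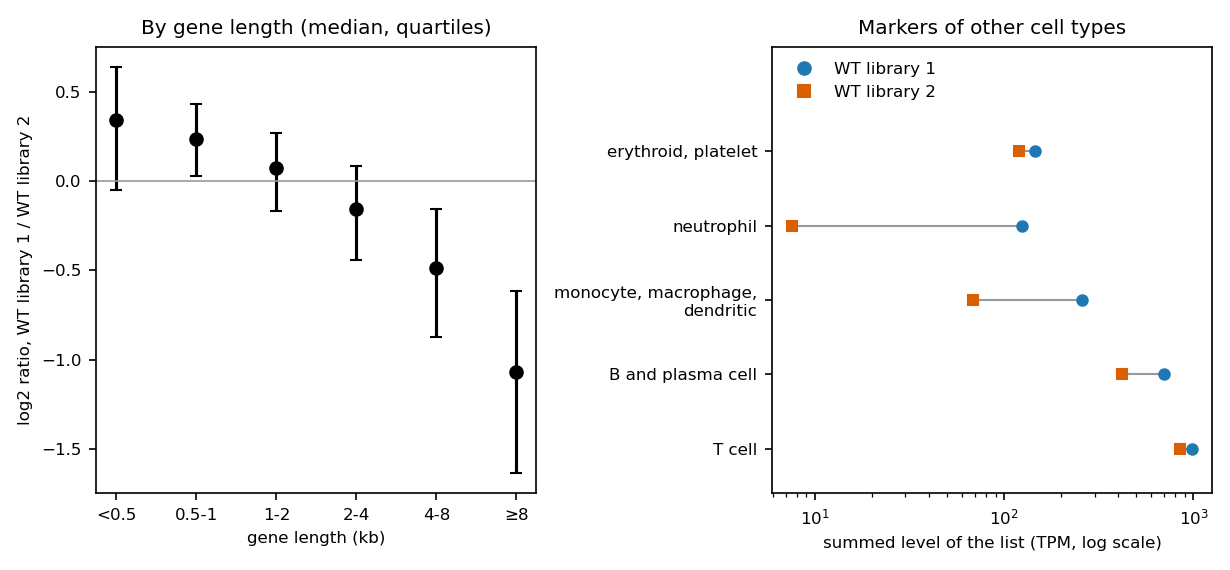
Left, median and quartiles of the log2 ratio of WT library 1 to WT library 2 by gene length in kb, for genes at 1 TPM or more; right, summed TPM (log scale) of the marker lists of other cell types in each library. The median falls from 0.34 in the shortest genes to -1.07 in the longest, and the neutrophil sum is 124 TPM in WT library 1 and 7.56 TPM in WT library 2.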

How the data were processed

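The authors' read counts per gene were made by featureCounts against the mm10 build, as the submitters' processing notes list; the aligner, versions and strand setting are not given in the sources used here. RNA was prepared with a TruSeq kit from 200 ng of total RNA and sequenced in paired ends, per the labels' protocols. The deposited counts are whole numbers per Entrez gene beside a gene length, per the file headers. The table of the series held the same counts as the files of the 2 wild-type libraries, and 0 columns were left without a sample. A RefSeq table of GRCm38.p6 named 25275 of 26611 genes (95.0%); those without a symbol held 1.83% of the TPM.

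TPM was computed from counts and length with Python 3.11.15 and pandas 2.3.3, tested first on simulated data, and a ratio is a log2 of TPM between libraries. TMM and DESeq2 size factors (edgeR 4.0.16, DESeq2 1.42.0 in R 4.3.3) served only as alternatives. The 36 lists had 757 entries, of which 743 were in the table. That these libraries be described, and the genes on the lists, were chosen with earlier results of these data known. Named genes were the 30 highest, up to 6 highest and 3 lowest members of each list, the 6 markers, Tcf7 and the 10 largest ratios in each direction at 5 TPM or more. Other list members, the genes of the Cma1 cluster, mast cell genes and copies were chosen after their values were seen. Alternatives were other thresholds and totals, CPM (counts scaled to the library total without length), a geometric mean, other scalings and each library alone.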

Additional observations from a re-analysis of the deposited data

How the results depend on the processing

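Without gene length (CPM), 674 genes held 50% of the level, the 100 highest held 23.7%, and 18 of the 30 highest genes by TPM stayed among the 30 highest. The shares by CPM were 1.70% for granzymes, 0.450% for Ly49, 2.31% for class I MHC, 1.76% for ribosomal proteins and 3.77% for mitochondrially encoded genes. Without mitochondrially encoded genes in the total, the 100 highest genes held 32.4% and class I MHC 3.41%; without features under 200 bases, class I MHC held 3.24%. With their annotated copies, added after seeing the data, ribosomal protein genes held 5.57%. Genes higher in WT library 1 numbered 66 at 5 TPM or more, 2894 with no filter, 593 at 1.5-fold and 98 at 4-fold; those higher in WT library 2 numbered 674, 3750, 2336 and 161, and 350 among genes under 4 kb. The median log2 ratio of library 1 to 2, -0.12 by TPM, was -0.0057 by TMM and -0.011 for genes under 4 kb. Taking 1 library alone gave 11032 to 11113 genes at 1 TPM. Of 223 further values of lists and genes, 59 moved by over 1 SD. With 2 libraries, the share of a list in either one alone lies within 1 SD of their mean by construction. This count therefore says nothing of stability there. Without WT library 1 the neutrophil list fell from 0.00659% to 0.000756%. Ranks are not strictly bound in this way, but their SD is that of the 2 library ranks, so a wide shift can stay within it. Itgam, at rank 244, ranked 199 without WT library 1 and 310 without WT library 2. Tbx21, at rank 172, ranked 130 and 220 in the same way. Neither gene counted as moved. Small shifts did count: Gzmb went from 38 to 36 without WT library 2, and Klrg1 from 111 to 112 without WT library 1. No paired analysis was possible because no groups were compared. Depth limits levels under about 0.169 TPM, and 2 mice cannot give a narrow SD.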
